A study of Mus musculus with 4 samples.

Results

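The genes described here encode the proteins of the cytosolic ribosome. They were chosen by symbol alone, as every gene named Rpl, Rps or Rplp with a number, together with Rpsa, and rows marked -ps or -rs and the S6 kinases (Rps6k) were left aside. The rule took 88 of the 24873 genes in the table, 53 of the large 60S subunit and 35 of the small 40S subunit. Of these, 84 were annotated in GENCODE M39 as protein coding and 4 as processed pseudogenes, namely Rpl6l, Rpl32l, Rps3a2 and Rps3a3. The symbols of 9 of the 88 ended in l or l1, and these are called paralogues here, while the other 79 are called core members.

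RNA of CD31+CD45- cerebral cells was sequenced on day 9 in 2 control and 2 tamoxifen libraries. Animals of both groups carried a floxed Mgp gene (Mgp fl/fl) and a tamoxifen-activated recombinase driven by the endothelial VE-cadherin promoter (VE-cadherin cre/ERT2). At 10 weeks of age, tamoxifen was injected at 75 mg/kg on each of 5 days, and controls were left without it, so that the drug and the deletion cannot be told apart. Each library came from cells pooled from 3 mice, and the sample labels name the cells by a tdTomato reporter rather than by CD31 and CD45. Columns headed C and A were taken for control and AVM (arteriovenous malformation), a reading the labels do not spell out, since they use the word treated.

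A cytosolic ribosome joins a small subunit, which reads the messenger RNA, to a large subunit, which forms the peptide bond. Each subunit holds ribosomal RNA, most of it made by RNA polymerase I, and a single copy of most of its proteins. The messenger RNAs of these proteins are therefore usually held at levels close to each other. Most of these messenger RNAs begin with a cytidine followed by a run of pyrimidines, the TOP motif, through which mTORC1 and LARP1 control their translation and stability.

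Ribosomal protein genes lay higher in the tamoxifen libraries almost throughout. The median of the 88 members was 5670.0 and 7128 normalized counts in control 1 and 2, and 12152 and 10177 in tamoxifen 1 and 2. Normalized counts are the deposited values, which are reads per gene divided by one factor per library. Both tamoxifen libraries were above both control libraries for 82 of 88 members (93.2%), compared with 43.1% of the 20485 genes tested, and both were below for 4 members (4.55%), compared with 39.2%. The median log2 fold change was 0.94 over the members and 0.05 over all genes tested, where the fold change is that of log2(normalized count + 1).

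Of the 88 members, 37 (42.0%) were called higher by limma, which asks for a BH-adjusted p under 0.05 and a log2 fold change over 1, compared with 28.6% of all genes tested. None was called lower, compared with 16.0% of all genes. At an unadjusted p under 0.05, 1 member was lower by limma, 0 by edgeR and 1 by DESeq2. With edgeR on the recovered reads 37 members were called higher and 0 lower (28.6% and 16.5% of all genes), and with DESeq2 39 and 0 (27.8% and 14.9%). By the adjusted p alone 76 members (86.4%) were higher and 0 lower, against 33.4% and 25.5% of all genes. The size limit fell inside the members' own range, since 41 of the 88 had a log2 fold change between 0.8 and 1.2. The nearest members on its 2 sides were Rplp2 at 0.9989 and Rpl14 at 1.01. The median log2 fold change of the members was 0.81 without tamoxifen 1 and 1.07 without tamoxifen 2. Without control 1 it was 0.81, and without control 2 it was 1.11. Calls from these fits are not read here, since 1 group then holds 1 library. Their counts are given below only with the checks of the processing.

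**Figure D1:**
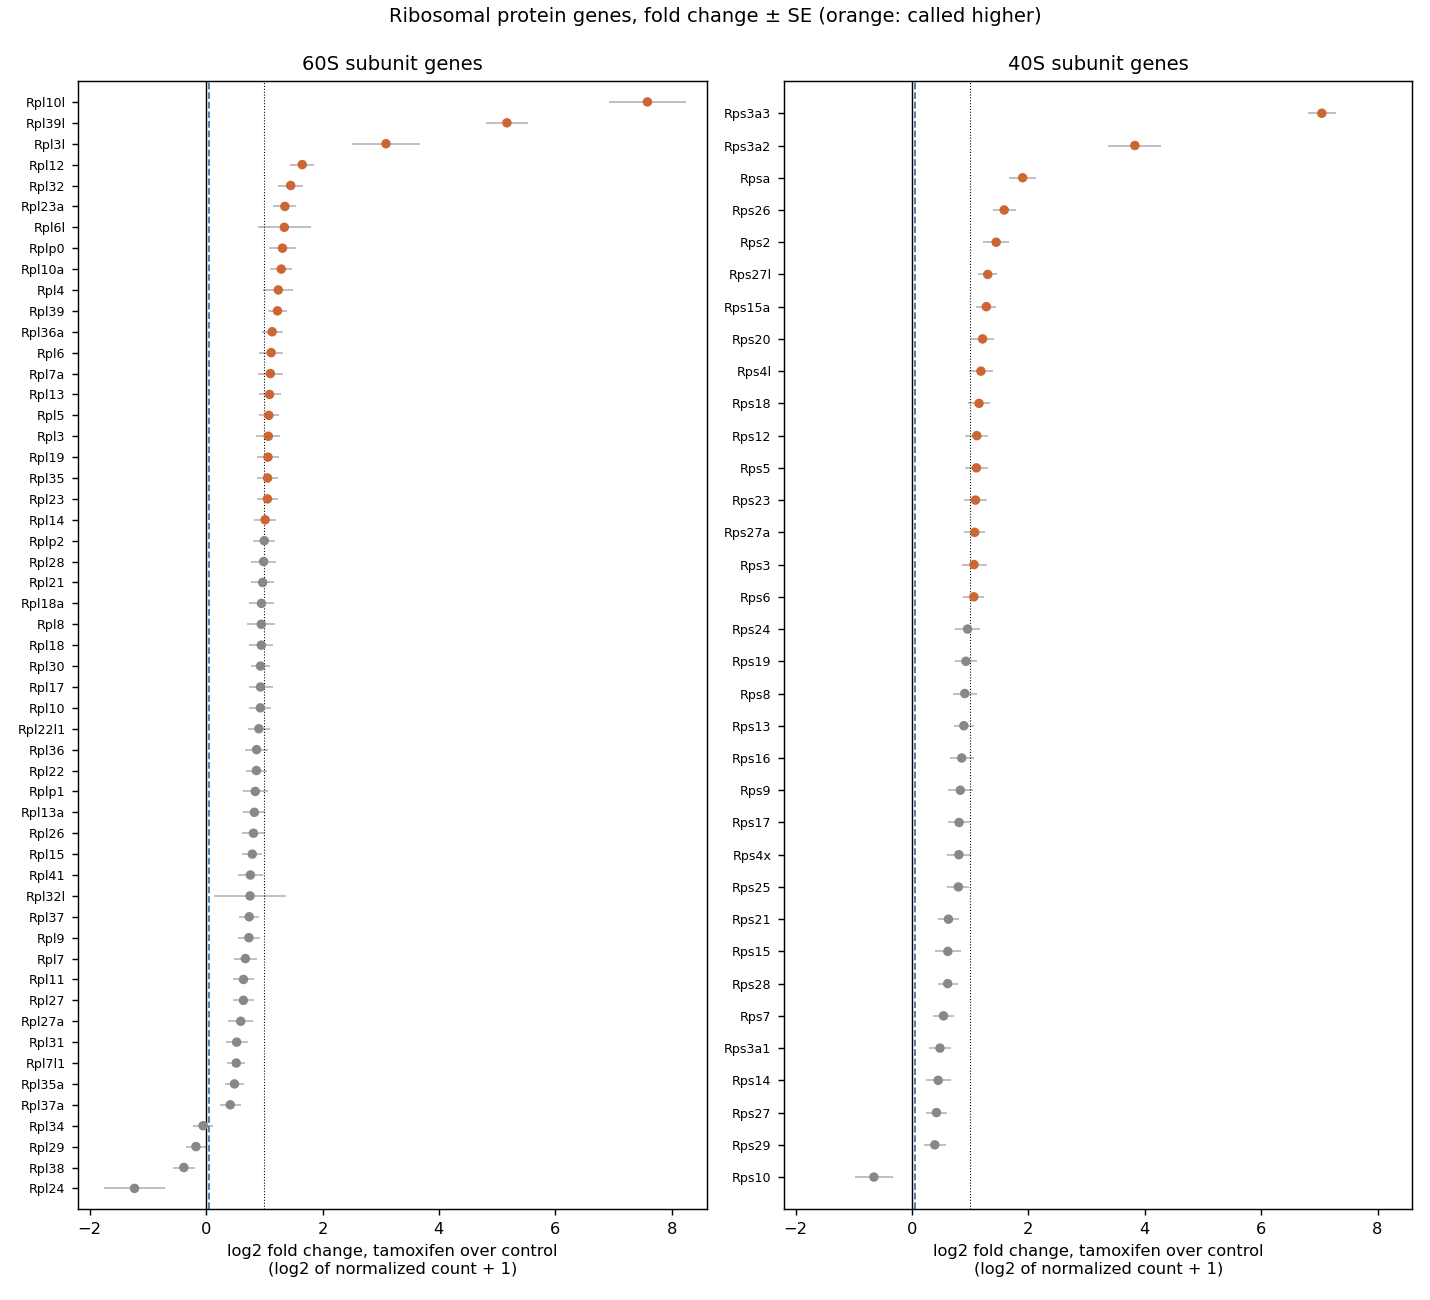
Log2 fold change (tamoxifen over control, log2 of normalized count + 1) of 87 of the 88 members, each with its limma SE, in the order of size for the 60S and the 40S subunit. Orange points are the 37 members called higher, the dashed line is the median of all genes tested (0.05) and the dotted line is the size limit of 1. The 5 points left of zero are Rpl24, Rps10, Rpl38, Rpl29 and Rpl34.

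Ribosomal protein genes took 1.01% and 1.23% of all reads on genes in control 1 and 2, and 3.16% and 2.76% in tamoxifen 1 and 2. The shares of the groups did not overlap and were 1.12% ± 0.158 and 2.96% ± 0.283 (SD, n = 2), a ratio of 2.65. The 95% exact binomial intervals, which cover counting error only, ran from 1.00% to 1.01%, from 1.226% to 1.23%, from 3.158% to 3.17% and from 2.759% to 2.77% in the same order. A two-sided exact permutation test gave p = 0.3333, which is the smallest p that 2 libraries against 2 allow. The 60S members had a mean share of 0.634% in the controls and 1.69% after tamoxifen, and the 40S members 0.484% and 1.27%, with ratios of 2.67 and 2.62. The share of mitochondrial ribosomal protein genes, which belong to a separate ribosome, had a ratio of 1.6.

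**Figure D2:**
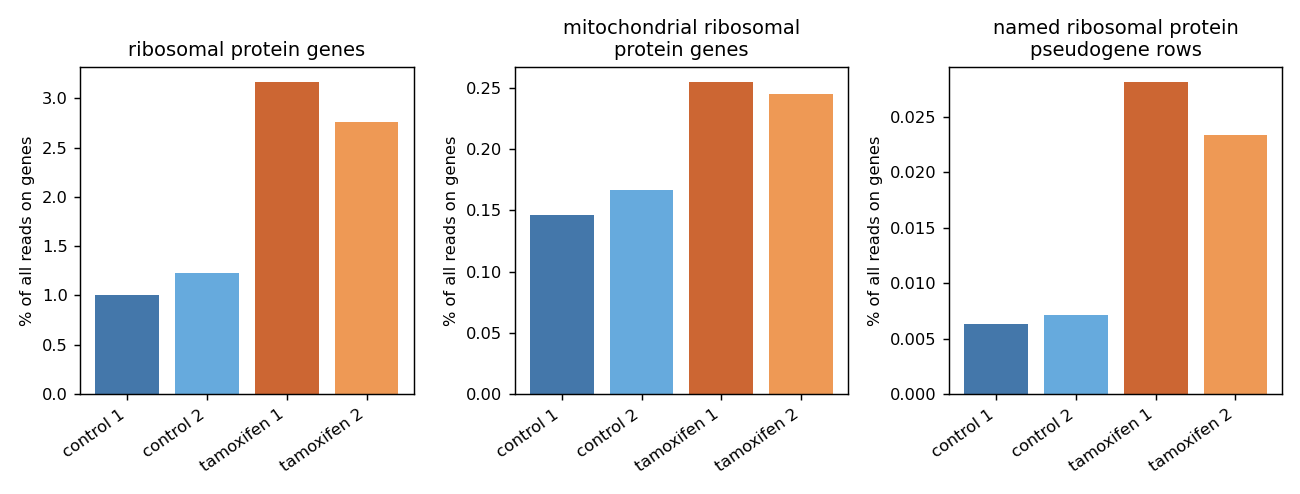
Percent of all reads on genes in each of the 4 libraries for the ribosomal protein genes, the mitochondrial ribosomal protein genes and the rows named as ribosomal protein pseudogenes. Bars are single libraries and start at 0; for the ribosomal protein genes both tamoxifen bars (3.16% and 2.76%) stand above both control bars (1.01% and 1.23%).

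The sign of the members' median was the same under 3 scalings, but its size and the count of calls moved. Total normalized counts were lower in the tamoxifen libraries, at 0.722 of the control mean. After rescaling to equal totals the members' median was 1.41 and that of all genes 0.52, and 73 members (83.0%) were called higher by limma with 0 lower, compared with 35.2% and 8.97% of all genes. After quantile normalization the members' median was 1.44 and that of all genes -0.23, and 69 members were called higher and 2 (Rps10 and Rpl24) lower, compared with 22.5% and 26.9%. Relative to the median of all genes the members' median was 0.89, 0.90 and 1.66 higher in the deposited scaling, with equal totals and with quantile normalization.

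**Figure D3:**
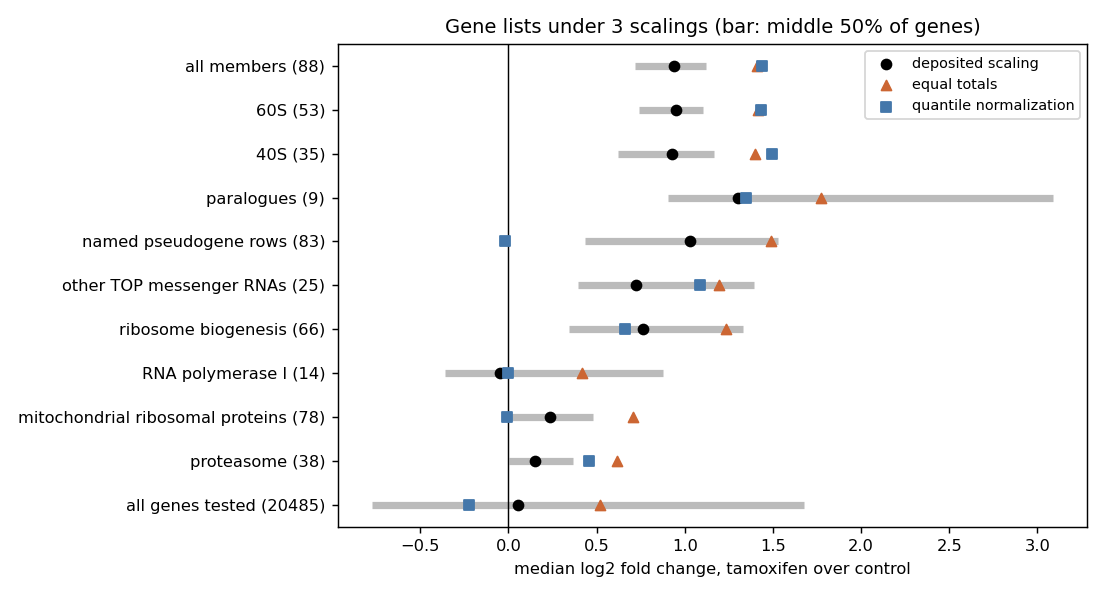
Median log2 fold change (tamoxifen over control) of the ribosomal protein genes and of other gene lists under 3 scalings, with the number of genes tested in brackets and the middle 50% of genes in the deposited scaling as a grey bar. The ribosomal protein genes lie at 0.94 or above under each scaling, while all genes tested lie between -0.23 and 0.52.

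The members also differed in one direction between libraries of the same group. Control 2 was above control 1 for 81 of the 88 members (92.0%) and for 54.5% of all genes tested, with medians of 0.29 and 0.05 on the log2 scale. Tamoxifen 1 was above tamoxifen 2 for 86 members (97.7%) and for 58.0% of all genes. The median log2 difference of tamoxifen 2 from tamoxifen 1 was -0.27 over the members and -0.08 over all genes. The step between the groups was larger than either of these.

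**Figure D4:**
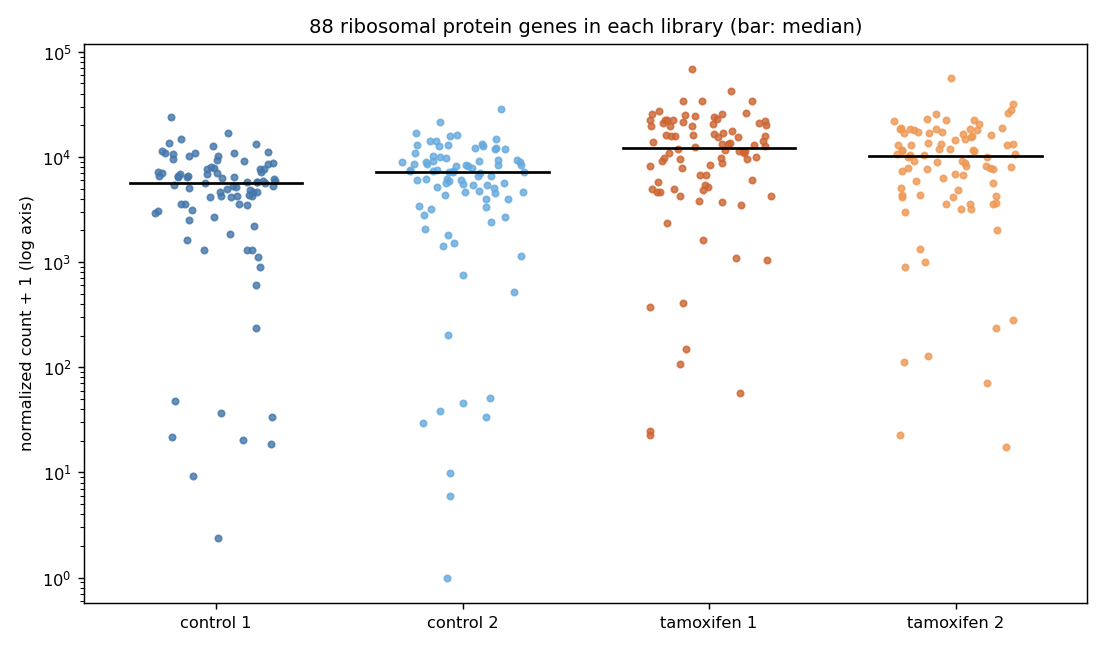
Normalized count + 1 of the 88 members in each library on a log axis, 1 point per gene, with the median as a black bar. The medians lie at 5670.0 and 7128 in the controls, against 12152 and 10177 after tamoxifen, and the genes below 100 in both control libraries are Rpl10l, Rpl3l, Rpl6l, Rpl32l, Rpl39l, Rps3a2, Rps3a3 and Rpl24.

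The RNA of marker genes of cell types and cell states differed between the groups as well. Summed normalized counts of 8 endothelial markers were 921902 and 894033 in the controls, against 155105 and 79568 after tamoxifen, with all 8 called lower by limma and none at 0. Markers called higher were 5 of 5 for the cell cycle, 6 of 6 for pluripotency, 7 of 7 for neutrophils, 6 of 6 for erythroid cells, 5 of 5 for fibroblasts and 5 of 5 for astrocytes, of which 2 neutrophil and 2 pluripotency markers were under 10 in both controls. The count was 4 of 4 for lymphocytes (1 of them under 10 in both controls), 1 of 1 for leukocytes and 4 of 5 for oligodendrocytes. It was 2 of 4 for neurons, 2 of 5 for microglia and macrophages and 1 of 6 for pericytes and smooth muscle. Of all genes tested, 28.6% were called higher and 16.0% lower. The 3 pituitary markers were called lower, with sums of 12938 and 36696 in the controls, against 108 and 73 after tamoxifen. The cell cycle markers summed to 999 and 1174 in the controls, against 72336 and 70659 after tamoxifen. The pluripotency markers summed to 59 and 90 against 44096 and 34059. The part of these in the ribosomal protein values was not tested, and fewer cells of a type and less RNA per cell cannot be told apart in pooled cells. The targeted gene Mgp was at 1094 and 1352 normalized counts in the controls, against 945 and 909 after tamoxifen, a log2 fold change of -0.39 that did not pass (limma, BH-adjusted p = 0.099) and that was 0.08 with equal totals.

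The 60S and 40S subunits gave nearly the same values. For the 60S subunit 21 of 53 members (39.6%) were called higher, with a median log2 fold change of 0.95. For the 40S subunit 16 of 35 (45.7%) were called higher, with a median of 0.93. Of all genes tested, 28.6% were called higher. Over the 84 coding members, whose coding sequences run from 75 to 1257 bases, Pearson's r between the log2 fold change and the log2 of the coding length was 0.0872, a description across genes that share the same libraries. With coding genes cut into 4 bins of equal size by coding length, 76 of the 84 lay in the first bin (up to 870 bases) and 8 in the second (up to 1389 bases). The median log2 fold change of the other genes in these bins was 0.15 and 0.17.

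The most abundant member was Rpl4, whose protein lines the tunnel through which the new peptide leaves. Rpl4 was at 23879.9 and 28813 normalized counts in control 1 and 2, and at 67955 and 56523 in tamoxifen 1 and 2. The groups did not overlap, and Rpl4 held 4.62% and 4.56% of all reads on members in the controls, against 5.6% and 5.71% after tamoxifen. Its log2 fold change was 1.24 ± 0.256 (SE; limma, BH-adjusted p = 0.0042). The next by mean count were Rpl8, Rps3, Rplp0 and Rpl7. Their log2 fold changes were 0.95, 1.06 (called), 1.31 (called) and 0.67. The normalized counts of each gene were also divided by its coding length alone, which is 75 bases for Rpl41, the smallest protein. Per kilobase of coding sequence Rpl41 had the highest mean in the control libraries, at 103170.0 normalized counts per kb. Rps27 followed with 33816 and Rps24 with 32239. Before this division the control mean of Rpl41 was 7738, below 8522 for Rps27 and 12573 for Rps24. The order per kilobase therefore rests on the short coding length of Rpl41 and is not an order of counts.

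Rpsa stood first among the core genes that are no pseudogenes. Its protein, the laminin receptor precursor, sits at the exit of the messenger RNA channel on the small subunit. Rpsa was at 6853 and 8944 normalized counts in the controls, against 33647 and 25419.5 after tamoxifen. The groups did not overlap, and Rpsa went from 1.33% and 1.42% of the reads on members to 2.77% and 2.57%. The log2 fold change was 1.90 ± 0.226 (SE; limma, BH-adjusted p = 0.000283). It was followed by Rpl12, of the base of the stalk, at 1.65, by Rps26, of the exit of the messenger RNA channel, at 1.58, by Rpl32 at 1.45 and by Rps2, of the entry of that channel, at 1.45. Rpl12 was at 5782 and 7286 normalized counts in the controls, against 22657 and 18342 after tamoxifen, and Rps26 at 5653 and 7242 against 21112 and 17426. For both genes the groups were far apart compared with the libraries within a group. Rpl23a, which stands at the rim of the tunnel exit, had a log2 fold change of 1.35, and Rpl10a and Rps15a had 1.29 and 1.28, all 3 called.

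The members were then grouped by their place on the ribosome. In the stalk, which recruits the elongation factors, Rplp0 was at 10867 and 13314 in the controls, against 34349.8 and 25984 after tamoxifen, while the log2 fold changes of Rplp1 and Rplp2 were 0.84 and 0.9989 and passed by the adjusted p alone. Rpl5 and Rpl11, which carry the 5S RNA and can bind Mdm2, had 1.08 (called) and 0.64. The tunnel genes Rpl4, Rpl39 and Rpl17 had 1.24, 1.23 and 0.93, with the first 2 called. At the entry of the messenger RNA Rps2 and Rps3 were both called, at 1.45 and 1.06. At its exit Rpsa and Rps26 were called, while Rps28 and Rps14 had 0.61 and 0.45. Of the 19 members whose human counterparts are mutated in Diamond-Blackfan anaemia 4 (21.1%) were called higher and 0 lower, compared with 28.6% and 16.0% of all genes, with a median of 0.79. Both tamoxifen libraries were above both control libraries for 18 (94.7%), compared with 43.1% of all genes. The exception was Rps10.

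Some members lay left of zero. Rpl24 was at 46.6 and 45.1 normalized counts in the controls, against 21.7 and 16.5 after tamoxifen, from 34, 36, 20 and 23 reads. Its groups did not overlap, yet the log2 fold change of -1.23 ± 0.532 did not pass (SE; limma, BH-adjusted p = 0.0799). Rps10 was at 236 and 200.3 normalized counts in the controls, against 149.6 and 126.5 after tamoxifen, with a log2 fold change of -0.66 (adjusted p = 0.117). Apart from the 2 pseudogenes Rps3a2 and Rps3a3, Rpl24 and Rps10 had the lowest control means of the core members, at 45.8 and 217.9. In GENCODE M39 41.1% of the exon bases of Rpl24 and 14.9% of those of Rps10 are shared with another gene on the same strand. Such an overlap of over 10% was also present in Rps12 (13.7%), which was called higher at 1.11, in Rpl13a (33.0%), at 0.83, and in Rpl32l (100%), at 0.75. Overlap with a gene on the opposite strand was 36.3% for Rpl24 and 8.92% for Rps10. Among other members it was 100% for Rpl32l and 78.1% for Rpl23a. The strand setting of the counting is not given, and the part of either overlap in the values was not tested.

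Rpl38 was at 5732 and 7015 normalized counts in the controls, against 5435 and 4353 after tamoxifen, with a log2 fold change of -0.38. Rpl29 and Rpl34 had log2 fold changes of -0.18 and -0.05 with overlapping groups. With equal totals the values of Rpl38, Rpl29 and Rpl34 were 0.09, 0.29 and 0.42, so that only Rps10 (-0.19) and Rpl24 (-0.78) stayed below zero. The smallest values above zero in the deposited scaling were those of Rps29, Rpl37a, Rps27 and Rps14, between 0.39 and 0.45, and these did not pass.

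To show the letters around annotated starts, windows of 30 bases are given for 4 called members with long runs of C and T. Rpl19 is tied with Rpl4 and Rps18 at 11 bases. Windows are also given for the 3 members below zero with a run of at least 10 bases. The run is in capitals, and the sequences are from RefSeq on GRCm38.p6, read on the strand of the gene with the annotated start as the 16th base. The run of Rpl19 lies wholly before the annotated start, so it is outside the annotated messenger RNA.
Rpl7a, chr2:26910792-26910821, plus strand: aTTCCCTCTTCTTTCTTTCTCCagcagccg
Rpl35, chr2:39005117-39005146, minus strand: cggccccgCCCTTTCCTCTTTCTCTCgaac
Rpl14, chr9:120571502-120571531, plus strand: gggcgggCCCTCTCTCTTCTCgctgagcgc
Rpl19, chr11:98026909-98026938, plus strand: tgggCTCTCCCCTTCgcagataatgggcgg
Rps10, chr17:27635230-27635259, minus strand: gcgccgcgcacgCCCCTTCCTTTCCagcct
Rpl38, chr11:114668565-114668594, plus strand: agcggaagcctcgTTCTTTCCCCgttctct
Rpl34, chr3:130730323-130730352, minus strand: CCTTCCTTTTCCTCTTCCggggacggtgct
As these members were picked for their long runs, the windows cannot show whether a run goes with the direction of change. Rpl24, also below zero, had a longest run of 2 bases and is not shown. A start sequence was found for 64 of the 88 members, and 28 of these had a run of 8 or more in the 30 bases. Runs were taken from anywhere in the window, also where they ended before the annotated start or began after it. For a gene with several listed starts the longest run was taken. Runs were not counted in other genes, so this count has no share of all genes to be read against. Within 50 bases on each side of a start and on the strand of the gene, the letters CTTTCC were found in 19 of 64 members (29.7%) and in 5.4% of 27025 genes. The letters CTCTTT were found in 29.7% and 4.7%, and CTTTTC in 14.1% and 4.3%. These motifs can overlap each other. CCGGAAG, on either strand and from 250 bases before to 50 after a start, was found in 40.6% of members and in 9.9% of genes. Among the 27 called members with a sequence and the other 37, CTTTCC was found in 7 and 12, CTCTTT in 9 and 10, CTTTTC in 3 and 6, and CCGGAAG in 11 and 15. A match is only a match of letters, and a gene with several listed starts was counted when any of them held it.

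The paralogues and copies showed the widest differences. Rpl39l is known from the testis and replaces the tunnel protein Rpl39. Rpl39 lies at chrX:36345092-36349130 on the minus strand and Rpl39l at chr16:9949671-9992780 on the plus strand (GRCm39). Their coding sequences without the stop codon have 153 bases each and differ at 23, shown in capitals, with 85.0% identity and a longest shared run of 38 bases.
Rpl39: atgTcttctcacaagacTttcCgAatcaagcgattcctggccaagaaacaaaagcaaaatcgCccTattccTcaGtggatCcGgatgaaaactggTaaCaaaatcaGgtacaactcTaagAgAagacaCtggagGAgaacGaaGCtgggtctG
Rpl39l: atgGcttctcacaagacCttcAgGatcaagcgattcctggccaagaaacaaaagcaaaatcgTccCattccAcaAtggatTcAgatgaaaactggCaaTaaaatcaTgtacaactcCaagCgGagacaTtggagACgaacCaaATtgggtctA
Rpl39l was at 20.55 and 32.5 normalized counts in the controls, against 1048 and 891 after tamoxifen. The groups lay far apart, with a log2 fold change of 5.17 ± 0.367 (SE; limma, BH-adjusted p = 3.78e-05). Rpl39 was at 1315 and 1434 against 3482 and 2967, so that Rpl39l amounted to 1.56% and 2.27% of Rpl39 in the controls, against 30.1% and 30.02% after tamoxifen. The log2 ratio of the pair was 3.94 higher in the tamoxifen libraries (exact permutation p = 0.3333).

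Rpl10l, a copy of Rpl10 without introns that is known from male germ cells, lies at chr12:66329273-66331181 on the minus strand, and Rpl10 at chrX:73314418-73316741 on the plus strand. The pair differs at 98 of 642 coding bases (84.7% identity). The 90 bases with the most differences, from base 304 to base 393 of the coding sequence of Rpl10, hold 20 of them in capitals.
Rpl10: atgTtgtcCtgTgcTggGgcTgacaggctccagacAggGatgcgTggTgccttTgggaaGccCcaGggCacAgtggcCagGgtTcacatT
Rpl10l: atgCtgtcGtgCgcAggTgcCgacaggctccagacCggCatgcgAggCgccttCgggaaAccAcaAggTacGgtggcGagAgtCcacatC
Rpl10l had 1 and 0 reads in the controls, against 343 and 324 reads after tamoxifen, the latter being 372 and 233 normalized counts. Against a floor of 3 reads per library it was at least 76.9-fold higher in the tamoxifen libraries (limma, BH-adjusted p = 8.12e-05). Even there it amounted to 2.3% and 1.74% of Rpl10.

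Rps3a2 and Rps3a3 are annotated as processed pseudogenes of Rps3a1, whose protein takes part in initiation on the small subunit. Rps3a3 lies at chr13:108807137-108807931 on the plus strand and Rps3a1 at chr3:86045244-86050009 on the minus strand. The exon of Rps3a3 differs from the coding sequence of Rps3a1 at 9 of 792 aligned bases, with a longest shared run of 215 bases, and in no stretch of 90 bases at more than 2, as the bases from 171 to 260 (in the numbering of Rps3a1) show.
Rps3a1: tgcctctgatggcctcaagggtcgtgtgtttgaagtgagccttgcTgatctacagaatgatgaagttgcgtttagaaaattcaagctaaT
Rps3a3: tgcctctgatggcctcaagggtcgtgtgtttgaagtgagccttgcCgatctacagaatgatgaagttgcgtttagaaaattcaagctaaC
Rps3a3 was at 32.9 and 37.5 normalized counts in the controls, against 5216 and 4345 after tamoxifen. Rps3a2, which differs from Rps3a1 at 4 of 792 bases, was at 17.8 and 28.8 against 403 and 279. Both were called higher, with log2 fold changes of 7.04 and 3.83, while that of Rps3a1 was 0.48 and did not pass (limma, BH-adjusted p = 0.0556). Rps3a3 went from 0.296% and 0.298% of Rps3a1 to 29.55% and 28.2%. How reads that match several of these copies were counted is not given in the sources used here, so these 3 values are uncertain.

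Of the other paralogues Rpl3l, a form known from heart and skeletal muscle, was at 8.22 and 5.01 normalized counts in the controls, against 55.3 and 70.45 after tamoxifen. It was called higher, with a log2 fold change of 3.09, and stayed at most at 0.316% of Rpl3. The 3 skeletal muscle markers summed to 16 and 3 in the controls, against 1697 and 1345 after tamoxifen, and like Rpl3l each was under 10 in both control libraries. Rps27l, which responds to p53, was at 1314 and 1501 in the controls, against 3749.9 and 3194 after tamoxifen. It was called higher at 1.30, beside 0.42 for Rps27, and the ratio of this pair was 0.88 higher on the log2 scale. For Rps4l and Rps4x the difference of the ratio was 0.38, and for Rpl7l1 and Rpl7 it was -0.16. For Rpl22l1, Rpl6l and Rpl32l the ratios to the partner overlapped between the groups, with differences of 0.04, 0.23 and -0.70. Over their aligned bases Rpl6l and Rpl32l are 98.7% and 97.2% identical to Rpl6 and Rpl32. Their values and ratios are therefore uncertain as well, since the counting of shared reads is not given. The exact permutation test cannot pass for any of the 9 pairs. Rpl10l and Rpl3l were under 10 normalized counts in both control libraries and entered the test only through the tamoxifen libraries. Without them and the 4 pseudogenes 32 of 82 members were called higher and 0 lower, with a median of 0.93.

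**Figure D5:**
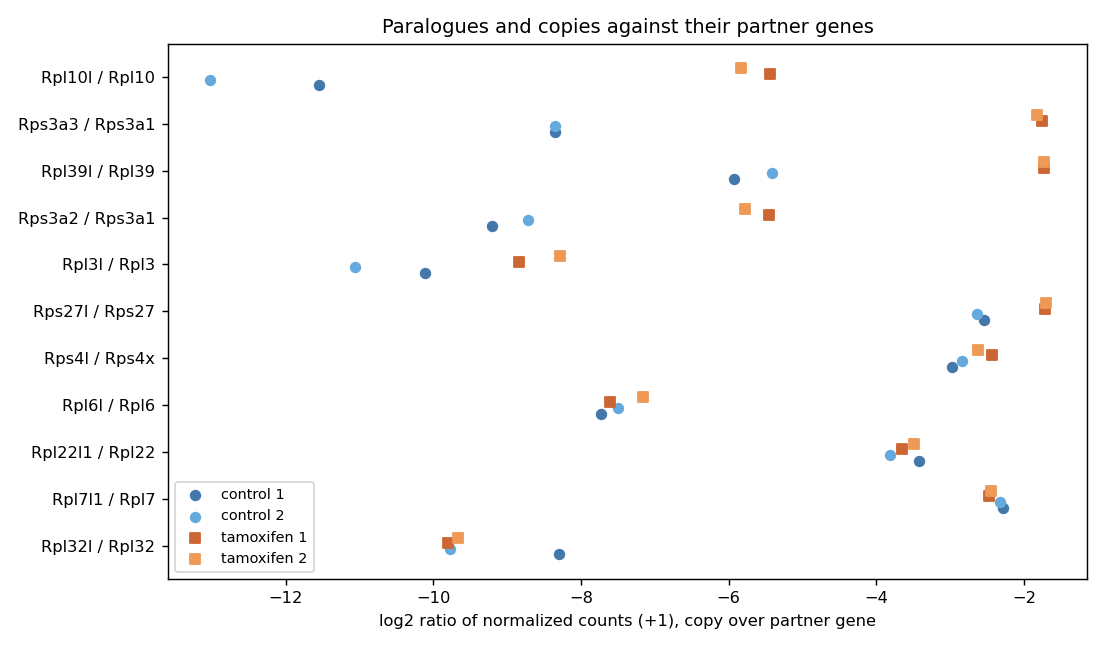
Log2 ratio of normalized counts (+1) of each paralogue or copy to its partner gene in the 4 libraries, with circles for control and squares for tamoxifen. Rpl10l, Rps3a3, Rpl39l, Rps3a2 and Rpl3l lie to the right in both tamoxifen libraries, while the points of Rpl6l, Rpl22l1 and Rpl32l overlap between the groups.

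Some genes of ribosomal proteins have symbols that the rule does not take. Rack1, a scaffold on the small subunit, was at 12249.5 and 14022 normalized counts in the controls, against 41219 and 30764 after tamoxifen, and was called higher at 1.44. Fau, which encodes a ubiquitin-like protein fused to Rps30, had a log2 fold change of 0.24 with overlapping groups. Rpl36al, at 8.22 and 5.01 against 20.6 and 16.5, had 1.39 and did not pass (limma, BH-adjusted p = 0.0834).

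The genes that build and serve ribosomes were read from lists of gene names. Of 66 ribosome biogenesis factors 24 (36.4%) were called higher and 1 lower, with a median of 0.77, compared with 28.6% and 16.0% of all genes tested, shares against which the counts of the other lists are read too. Npm1, a nucleolar histone and ribosome chaperone, was at 5094 and 5024 normalized counts in the controls, against 40226 and 33748 after tamoxifen, with a log2 fold change of 2.86. Nhp2, a protein of H/ACA particles, had 2.29, and Sbds, which helps to release Eif6 from the large subunit, was the one called lower, at -1.11. Of 14 genes of RNA polymerase I and its factors 2 were called higher, Polr1a at 1.48 and Polr1c at 1.03, and the median was -0.05, which turned to 0.42 with equal totals. Of 5 chaperones of ribosomal proteins Grwd1 (1.71) and Heatr3 (1.00) were called higher. Of 25 other TOP messenger RNAs 10 were called higher and 0 lower, with a median of 0.72. The elongation factor Eef1a1 was at 86907 and 99781 in the controls, against 232822 and 190619 after tamoxifen, with a log2 fold change of 1.18. Hnrnpa1, a splicing factor, had 1.86.

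Of 20 genes that signal to ribosomes 3 were called higher and 2 lower. Myc, a transcription factor of many ribosome genes, was at 219 and 280.4 normalized counts in the controls, against 1480.5 and 1379.6 after tamoxifen, with a log2 fold change of 2.52. Mycn had 1.82, and Eif4ebp1, which holds back the cap-binding protein, had 2.50. The partner Max and the antagonist Mxd4 were called lower, at -1.54 and -1.87. Of 10 genes of the p53 arm 5 were called higher and 0 lower, led by Phlda3 (4.49) and Cdkn2a (3.802). By the adjusted p alone 7 were higher and 2 lower, the latter being Cdkn1a (-0.88) and Bbc3 (-0.78), which were looked up after the counts were seen. Of 11 tested genes of ribosome rescue 1 was called higher, the recycling factor Abce1 (1.04), and 1 lower, the collision kinase Map3k20 (-1.47). By the adjusted p alone 1 was higher and 6 lower, against 33.4% and 25.5% of all genes. The median of this list was -0.50, and -0.03 with equal totals.

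Other large machines gave smaller values. Of 78 mitochondrial ribosomal protein genes 3 were called higher by limma and 0 lower, with a median of 0.24, and of 38 proteasome genes 0 were called higher and 2 lower, Psmb8 (-1.80) and Psmb10 (-1.49), with a median of 0.15. Of the proteasome genes 5 were higher and 3 lower by the adjusted p alone. The difference between these lists and the ribosomal protein genes was not tested.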

How the data were processed

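Each deposited value is a signal, obtained by the authors from the reads of a gene and a scaling factor of its library. Per the study's methods and the submitters' processing notes, reads were aligned with STAR 2.7.10a to GRCm39, counted during alignment, filtered for low counts and normalized by DESeq2 1.36.0. The annotation release, the strand setting and the low-count limit are not given in the sources used here. The smallest step of a column was taken as 1 read, which gave back the reads (100% of values whole within 0.1 read) and came to 35387438 to 49799321 per library. Values at 3 reads or fewer were taken as the floor.

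Where the mean over the 4 libraries reached 10, a gene was tested by limma 3.58.1 in R 4.3.3 (lmFit, eBayes with trend) on log2(value + 1), with BH adjustment over all 20485 genes and the study's cut-offs (adjusted p under 0.05, log2 fold change over 1). edgeR 4.0.16 and DESeq2 1.42.0 were run on recovered reads. Single values were compared by exact permutation over the libraries, two-sided. The fits were tested on simulated data. Each choice was also changed on its own, with a pseudocount of 0.5 or 5, without the filter, with a mean of 100, equal totals, quantile normalization, no trend, a replicate block and each library left out.

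The members and lists were chosen with earlier results of these data known. Named members are the paralogues and partners, the 5 most abundant, the 8 largest rises and 8 largest falls of the core, those against its direction, and the small structural lists. From other lists up to 2 called genes a direction are named. Mycn, Eef1a1 and the ratios of Rps3a2 and Rps3a3 were chosen after their values were seen. Positions are from GENCODE M39 (GRCm39), and coding lengths are those of its principal CCDS transcripts. Pairs were aligned with Biopython 1.88. Protein sequences were not used here. Of the genes this rule names, 2 are not reported here one by one.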

Additional observations from a re-analysis of the deposited data

How the results depend on the processing

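With the count of ribosomal protein genes called higher at 37, equal totals gave 73, quantile normalization 69, and the adjusted p alone 76, or 82 and 80 together with these scalings, a pairing chosen after seeing the data. Leaving out 1 library gave 10 to 52. The count called lower was 2 with quantile normalization, by both thresholds and by the adjusted p alone, 1 (Rpl24) without the trend, and 0 otherwise. The median of 0.94 moved to 1.41 with equal totals and 1.44 with quantile normalization, and to 0.81 to 1.11 with a library left out. The share's log2 ratio of 1.41 ran from 1.27 to 1.56 with a library left out. The cause of these shifts was not tested, except that fewer samples entered the fits with a library left out. In those fits 1 group held 1 library, so their counts of calls are no measure of how firm the result is. For the log2 ratios, leaving out 1 library gave 5.91 to 7.39 for Rpl10l, 3.69 to 4.20 for Rpl39l, -0.16 to 0.24 for Rpl22l1 (reversed at -0.16 and -0.0373) and -1.44 to 0.0453 for Rpl32l (reversed at 0.0453), and a pseudocount of 5 gave 4.80 for Rpl10l, whose control libraries held 1 and 0 reads.

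Directions turned with equal totals for Mgp (0.0786), Rpl29 (0.29), Rpl34 (0.42), Rpl38 (0.0877), the RNA polymerase I list (0.42) and the ribosome signalling list (0.23). With quantile normalization they turned for Rpl29 (0.0764), Rpl34 (0.28), Rpl38 (0.0211), Rpl32l (-0.22), the pseudogene rows (-0.0194) and the mitochondrial ribosomal proteins (-0.0108). Rpl34 turned without control 2 (0.0567) and without tamoxifen 2 (0.0839), with a range from -0.19 over the libraries left out, and the RNA polymerase I list without the same libraries (0.0226 and 0.0577). Of 1003 single-gene values in 72 genes, 893 kept direction and side of the adjusted p threshold. The labels number the libraries 1 and 2 in both groups, but deviations of the numbers did not go together (r = 0.0251 over 20485 genes), so the replicate block only shares a number; with it 37 members were called higher and 0 lower.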

Other observations

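Rows named as ribosomal protein pseudogenes, which are outside the symbol rule, took a larger share of reads in both tamoxifen libraries. They took 0.00636% and 0.00709% of all reads in the controls, against 0.0281% and 0.0233% after tamoxifen. Of 177 such rows 83 were tested, and 18 (21.7%) were called higher by limma and 1 lower, compared with 28.6% and 16.0% of all genes. Both tamoxifen libraries were above both control libraries for 63 (75.9%), compared with 43.1% of all genes. Of the 18 called higher, 8 were under 10 normalized counts in both control libraries and entered the test only through the tamoxifen libraries, among them Rps13-ps1 and Rpl15-ps6. Rps13-ps1 was at 8.22 and 8.76 normalized counts in the controls, against 849 and 700.9 after tamoxifen, with a log2 fold change of 6.35. Rpl15-ps6 was at 4.11 and 5.01 against 399.9 and 295, and Rpl30-ps2, the one called lower, at 237 and 119 against 24.9 and 20.1. The median of the 83 rows was 1.03 in the deposited scaling and -0.02 after quantile normalization. Reads of these rows may be shared with their parent genes.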
